A study of Mus musculus with 18 samples.

Results

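The genes described here are 10 cytosolic glutathione S-transferases: Gstm1, Gstm2, Gstm3, Gstm4, Gstm5 and Gstm6 of the mu class, Gsta3 and Gsta4 of the alpha class, Gstp1 of the pi class and Gstt1 of the theta class. They are 10 of the 16535 genes matched to a mouse whole-genome array and were read through 13 of its 41174 probes, each probe being assigned to a gene by the transcript accession printed beside it. The genes were chosen because Gstm1 and Gstm3 were already known to be higher in the hypothyroid livers of this study. The values of the hypothyroid to control comparison are therefore given for these 13 probes as a description, with no p-value. The labels name 5 control and 5 hypothyroid livers on arrays, all from C57BL/6 pups at PND (postnatal day) 15, and the paper adds that each was a male of a different litter. Hypothyroid pups were nursed by dams that drank 0.05% MMI (methimazole, which blocks the synthesis of thyroid hormone) and 1% perchlorate (which blocks the uptake of iodide) in sugar water from PND 12, and controls by dams on sugar water alone. Pups of both groups were given an injection of phosphate-buffered saline before sacrifice. The model is a short exposure that began at PND 12, and the paper describes dams and litters alike as exposed to the treated water.

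Glutathione S-transferases join the tripeptide glutathione to electrophilic compounds such as drugs, carcinogens and the aldehydes of oxidised lipids. The conjugates leave the cell through export pumps and are trimmed to mercapturic acids. Hepatocytes hold large amounts of these enzymes, and many of the genes respond to the transcription factor Nrf2 (Nfe2l2), which binds antioxidant response elements, and to the drug-sensing receptors Car (Nr1i3) and Pxr (Nr1i2). The mu class genes stand side by side. In the RefSeq annotation the order on chromosome 3 is Gstm5, Gstm7, Gstm6, Gstm3, Gstm2, Gstm1 and Gstm4, with pseudogenes between some of them. Neighbouring copies are alike in sequence, the probe sequences were not used here, and signal from one copy on the probe of another was therefore not assessed.

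Promoter windows of RefSeq (assembly GRCm38.p6, 250 bases before to 50 after a start) matched 9 of the 10 genes through 13 windows. Gstm1 and Gstm3 are printed since they differed most between the groups, in lower case, 5′ to 3′, from base -100 to the start base, and the capitals in Gstm1 mark AGGTCA, a half-site that nuclear receptors can bind. Gstm1 had 2 windows, and the one printed was taken because it holds AGGTCA, which the other does not.
Gstm1, chr3:108017818-108017918, minus strand: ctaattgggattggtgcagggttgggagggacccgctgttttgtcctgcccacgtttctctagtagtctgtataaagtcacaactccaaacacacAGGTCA
Gstm3, chr3:107969174-107969274, minus strand: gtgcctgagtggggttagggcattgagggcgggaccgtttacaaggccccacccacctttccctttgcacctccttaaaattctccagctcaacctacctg
Over the 250 bases before their starts, 227 bases of this pair could be aligned and 154 were identical, the most of 73 pairs of windows of different members. The next pair was Gstm6 with the other start of Gstm1, with 130 of 186 aligned bases identical.

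The remaining sequences are the stretches of Gsta3 and Gstm5 that hold TGACNNNGC, the core of the antioxidant response element, which is in capitals.
Gsta3, chr1:21240445-21240494, plus strand: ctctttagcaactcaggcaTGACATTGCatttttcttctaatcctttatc
Gstm5, chr3:107895794-107895843, plus strand: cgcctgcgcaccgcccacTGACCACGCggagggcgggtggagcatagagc
This core was found on either strand in windows of 2 of the 9 genes, against 14% of all 27025 genes with a window. AGGTCA was found in 1 of the 9, Gstm1, against 18.1% of all genes. The direct repeat of AGGTCA with a spacer of 4 bases, the classical arrangement for thyroid hormone receptors, was found in none of the 9 and in 0.0148% of all genes. AGGTCA is part of the repeat, no match of AGGTCA overlapped the core in these windows, and a match of letters is a description of the window alone.

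Values are log2 of the liver signal over that of a universal mouse reference RNA, a commercial mixture hybridised to every array in the other dye. A value of 1 is thus a doubling over the reference, and a value sets liver against reference, not the amount of one gene against another. The labels give liver as Cy5 and reference as Cy3 throughout. On control 832 and hypothyroid 576, which shared slide 141, the log2 ratios read that way ran opposite to those of all remaining slides, with r = -0.974 and r = -0.978 against their average over all probes tested, so the direction of these 2 arrays is not settled by the labels. Their channels were exchanged here, which brought r to 0.974 and 0.978, and values with the dyes as labelled and without slide 141 are given beside the results. Control 616 also stood apart. Its r was 0.882 against 0.974 to 0.988 on the other 9 arrays, and its hepatocyte markers (Alb, Apoa1 and others, 10 probes) averaged 3.06 against 4.41 to 5.00 in the other controls and 4.65 to 5.00 in hypothyroid livers. Markers of pancreatic acinar cells averaged 0.69 to 4.39 in controls and 0.55 to 0.70 in hypothyroid livers, the 2 controls at the low end being 881 and 391, and 8 of 9 acinar probes were lower in hypothyroid liver at an unadjusted p under 0.05 in limma. Of the skeletal muscle probes 7 of 7 had a lower mean in hypothyroid liver (3 at an unadjusted p under 0.05 in limma, median -0.22). Of the stellate probes it was 9 of 10 (2 lower and 1, Reln, higher at an unadjusted p under 0.05 in limma, median -0.31). Of all probes tested 4.08% were lower and 3.34% higher at that threshold, and 46.2% had a higher mean. The medians of the cholangiocyte, leukocyte, endothelial and erythroid lists differed by -0.30 to 0.26. The part of these lists in the results below was not tested. In bulk tissue, fewer cells of a type and less RNA per cell cannot be told apart.

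All 13 probes were above background in the liver channel on all 10 arrays and none was saturated. Control liver against the reference is a comparison that played no part in choosing the genes. In it 9 of the 13 probes were higher and 2 lower in liver at an adjusted p under 0.05 (limma, Benjamini-Hochberg over 32056 probes), where 36.3% of all probes tested were higher and 33.3% lower, 69.6% in all. Gsta3, an alpha class enzyme that handles lipid aldehydes and aflatoxin epoxide, had the highest ratio, 5.11 ± 1.5 (SD, n = 5), or 34.5-fold the reference (limma adjusted p = 8.4e-07), and its mean was 5.77 without control 616. Its second probe was at 3.25 ± 0.81 (limma adjusted p = 2.6e-07). Gstt1, a theta class enzyme that acts on small halogenated solvents, followed at 2.66 ± 0.65 (limma adjusted p = 2.0e-07).

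The mu class was split in this comparison. Gstm3 (1.89 ± 0.27, limma adjusted p = 8.7e-08), Gstm1 (1.86 ± 0.20, limma adjusted p = 1.7e-07) and Gstm6 (1.71 ± 0.46, limma adjusted p = 2.0e-06) were 3.71-fold, 3.62-fold and 3.28-fold the reference, and Gstm4 was 2.52-fold (1.33 ± 0.55, limma adjusted p = 1.7e-05). Gstm2 was not distinguished from the reference (0.14 ± 0.27, limma adjusted p = 0.26). Gstm5, a mu class form best known from brain and testis, was below it at -0.56 ± 0.12 (limma adjusted p = 2.0e-06). Gsta4, which detoxifies the lipid aldehyde 4-hydroxynonenal, was slightly above at 0.19 ± 0.17 (limma adjusted p = 0.018). For Gstp1, a form that hepatocytes of adult male mice hold in quantity, one probe was below the reference (-0.53 ± 0.20, limma adjusted p = 0.00050) and the other was not past the threshold (-0.17 ± 0.08, limma adjusted p = 0.062). The reference was 1 RNA and its own spread is not part of these tests, the dyes were not balanced, and with the dyes as labelled 0 of the 13 probes passed because the arrays of slide 141 then carried the opposite sign.

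In the hypothyroid livers the mean of all 13 probes was above that of the controls, where this held for 46.2% of all probes tested. The median difference of the 13 was 0.58 on the log2 scale, against -0.01 for all 32056 probes. On 7 probes of 5 genes (Gstm1, Gstm3, Gstm4, Gsta4 and Gstp1) every hypothyroid liver was above every control, which was so for 1.07% of all probes, and on no probe was every hypothyroid liver below. At an adjusted p under 0.05 in limma, 2 probes of 32056 passed (0.00624%), both lower in hypothyroid liver and neither among the 13. Without control 616 it was 33 of 31670 probes (0.104%), and calls among the 13 are not read from that fit. At an unadjusted p under 0.05 in limma, with no array left out, it was 7.42% of all probes. The genes were picked on this contrast, so these counts only describe them. In each list of array values below, controls stand in the order 881, 832, 522, 616 and 391, and hypothyroid livers in the order 891, 576, 311, 723 and 626.

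**Figure D1:**
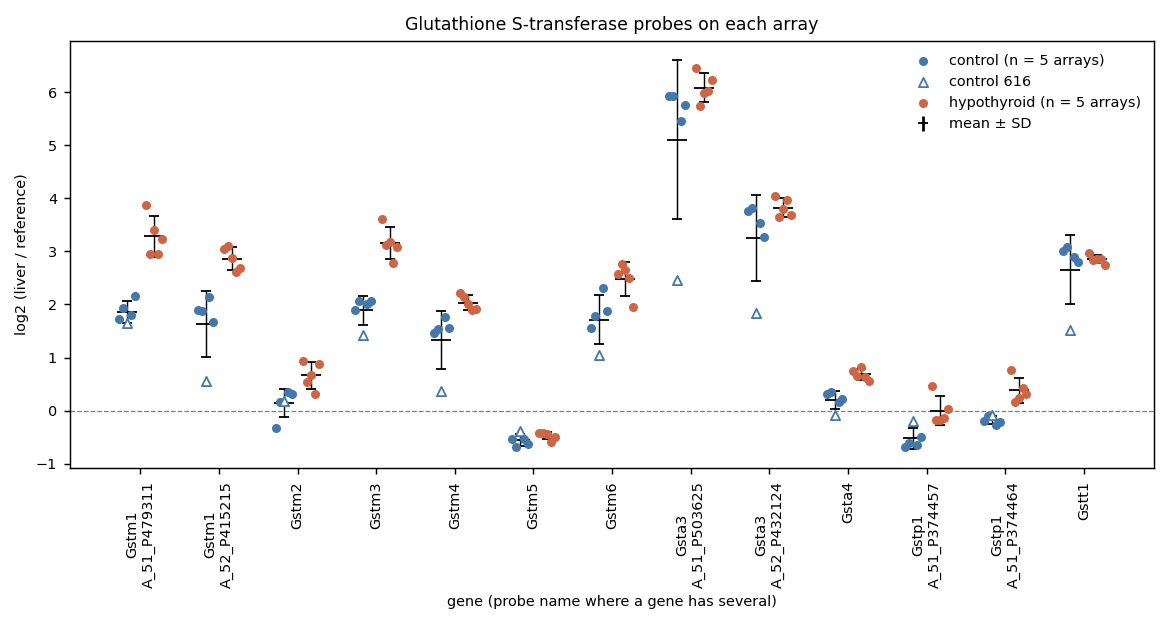
Log2 ratio of liver to reference for each of the 13 probes (horizontal axis), with 1 point per array, controls in blue, hypothyroid livers in orange and control 616 as an open triangle. Horizontal bars are group means and vertical bars the SD over 5 arrays. The groups are clear of each other for Gstm1 and Gstm3, and control 616 lies below the other controls for Gsta3 (2.45 on the first probe) and Gstt1 (1.51).

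Gstm1, the main mu class enzyme of mouse liver, showed the largest difference of the 13 probes. Probe A_51_P479311 read 2.17, 1.81, 1.94, 1.65 and 1.72 in the controls and 3.24, 2.94, 3.88, 2.96 and 3.40 in the hypothyroid livers. The lowest hypothyroid value, 2.94, stood well clear of the highest control value, 2.17. The means were 1.86 ± 0.20 and 3.28 ± 0.39 (SD, n = 5 each), a difference of 1.43 (SE 0.17) or 2.69-fold. The second probe, A_52_P415215, read 1.68, 2.13, 1.88, 0.56 and 1.89 in the controls and 2.68, 3.10, 3.05, 2.62 and 2.87 in the hypothyroid livers. Here too the groups did not overlap, and control 616 was the lowest array by more than 1 log2 unit. The second difference was 1.23 (SE 0.26), or 0.96 without control 616, while that of the first probe was 1.38 without it.

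Gstm3, in the same cluster as Gstm1 but with Gstm2 between them, differed by almost as much. Probe A_51_P454949 read 2.07, 2.0, 2.06, 1.42 and 1.90 in the controls and 3.08, 3.12, 3.62, 2.77 and 3.17 in the hypothyroid livers. The groups were again apart, with hypothyroid 311 the highest array, as it was for the first Gstm1 probe. The means were 1.89 ± 0.27 and 3.15 ± 0.30 (SD, n = 5 each), the difference 1.26 (SE 0.16) or 2.40-fold, and without control 616 it was 1.14.

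Among the other mu class genes, Gstm4 read 1.55, 1.76, 1.53, 0.37 and 1.45 in the controls and 1.91, 2.15, 2.22, 1.89 and 2.0 in the hypothyroid livers. The groups did not overlap, and the difference of 0.70 (SE 0.22) became 0.46 without control 616. Gstm6 read 1.88, 2.30, 1.77, 1.05 and 1.55 in the controls and 1.94, 2.76, 2.57, 2.50 and 2.64 in the hypothyroid livers. Its groups overlapped, since hypothyroid 891 lay below control 832, and its difference was 0.77 (SE 0.22).

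Gstm2, which stands beside Gstm1, read 0.32, 0.36, 0.17, 0.18 and -0.32 in the controls and 0.88, 0.53, 0.93, 0.31 and 0.67 in the hypothyroid livers. Of the hypothyroid livers 4 were above all controls and 723 was not, and the difference was 0.52 (SE 0.15). Gstm5, at one end of the cluster, read -0.63, -0.54, -0.69, -0.39 and -0.54 in the controls and -0.49, -0.42, -0.42, -0.59 and -0.44 in the hypothyroid livers. The groups overlapped throughout, and the difference was 0.09 (SE 0.07). With the liver channel alone the Gstm5 difference was -0.053, so its direction was not stable. Along the cluster the differences thus ran, in gene order, 0.09 for Gstm5, 0.46 for Gstm7 (not one of the 10, 0.28 without control 616), 0.77 for Gstm6, 1.26 for Gstm3, 0.52 for Gstm2, 1.43 for Gstm1 and 0.70 for Gstm4. Gstm2 lay between the genes with the largest differences, Gstm3 and Gstm1.

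Of the alpha class, Gsta3 probe A_51_P503625 read 5.77, 5.46, 5.93, 2.45 and 5.93 in the controls and 6.23, 5.75, 6.46, 6.02 and 6.00 in the hypothyroid livers. Control 616 was some 3 log2 units below the other controls, which overlapped the hypothyroid range. The difference of 0.98 (SE 0.58) became 0.32 without control 616. The second Gsta3 probe, A_52_P432124, spanned 1.85 to 3.82 in the controls and 3.65 to 4.05 in the hypothyroid livers, a difference of 0.58 (SE 0.32), or 0.23 without control 616.

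Gsta4 read 0.22, 0.16, 0.34, -0.08 and 0.32 in the controls and 0.56, 0.66, 0.74, 0.63 and 0.83 in the hypothyroid livers. The groups were apart, and the small difference of 0.49 (SE 0.09) had a small error and was 0.42 without control 616.

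Gstp1 probe A_51_P374457 read -0.50, -0.64, -0.61, -0.20 and -0.69 in the controls and 0.03, -0.17, 0.46, -0.14 and -0.18 in the hypothyroid livers. The gap between the groups was narrow, with control 616 at -0.20 and hypothyroid 626 at -0.18. Probe A_51_P374464 spanned -0.27 to -0.09 in the controls and 0.16 to 0.76 in the hypothyroid livers. The probes gave like differences, 0.53 (SE 0.14) and 0.55 (SE 0.11), and without control 616 these were 0.61 and 0.57. Gstp2, a near copy of Gstp1, was not matched to a probe, and signal from it on the Gstp1 probes was not assessed.

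Gstt1 read 2.79, 2.89, 3.09, 1.51 and 3.0 in the controls and 2.75, 2.84, 2.97, 2.85 and 2.86 in the hypothyroid livers. Apart from control 616 all 9 arrays lay between 2.75 and 3.09. The difference of 0.20 (SE 0.25) turned to -0.088 without control 616, so no direction is given for this gene.

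**Figure D2:**
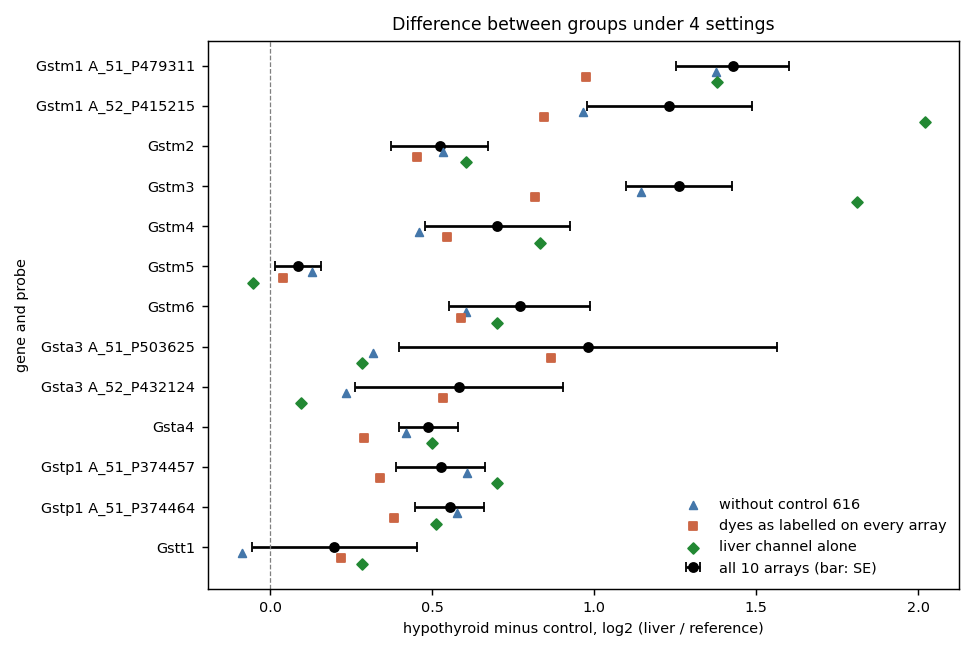
Difference between hypothyroid and control means in log2 ratio units (horizontal axis) for each probe, as black circles with the SE over all 10 arrays, and again without control 616 (triangles), with the dyes as labelled (squares) and from the liver channel alone (diamonds). Gstm1 and Gstm3 stay between 0.82 and 2.02, and Gstm5 and Gstt1 fall on both sides of 0.

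The size of the differences moved with the setting. The difference of the first Gstm1 probe was 0.97 with the dyes as labelled, 1.5 without slide 141 and 1.38 from the liver channel alone, and that of Gstm3 was 0.82, 1.30 and 1.81 in turn. With the dyes as labelled the arrays of slide 141 carry the opposite sign and take from the difference. The liver channel alone gave 2.02 for the second Gstm1 probe, with the liver signal of control 616 at 9.55 against 11.61 to 11.94 in the other controls (log2 units, quantile normalised). On this scale Gstm3 in control 616 was at 11.40 against 13.69 to 13.79.

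The reference channel of control 616 differed as well. For the first Gsta3 probe its reference signal was 14.16, where the other 9 arrays lay between 10.22 and 11.17, while its liver signal was 16.33 against 16.58 to 16.91 in the other controls. For Gstm3 its reference signal was 10.16 against 11.54 to 11.87. The low Gsta3 ratio of control 616 thus went with a high reference signal, and its part in the results on other genes was not tested.

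**Figure D3:**
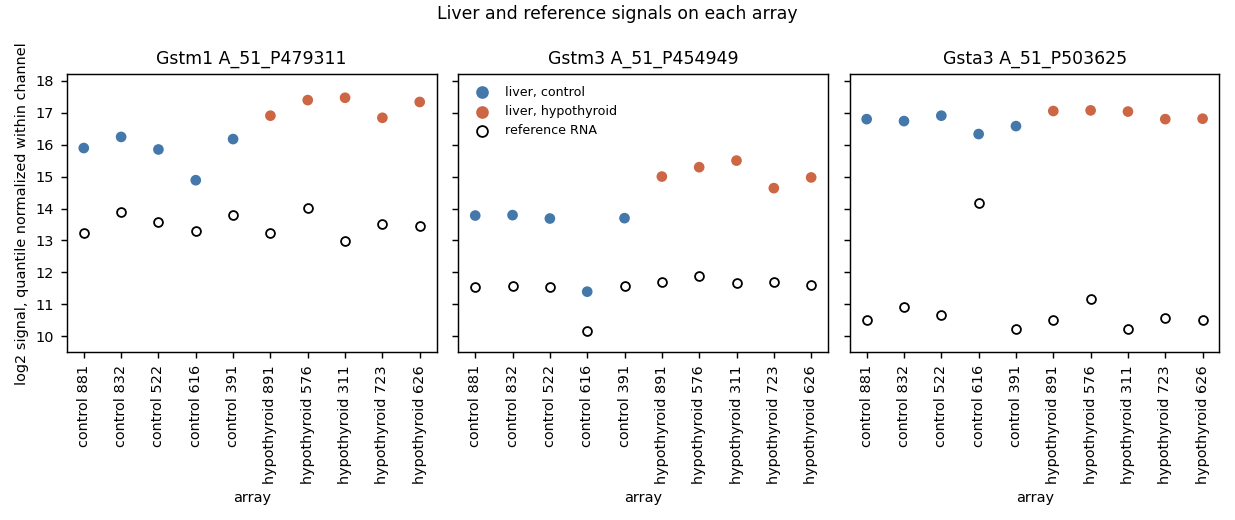
Liver signal (filled, blue for controls and orange for hypothyroid livers) and reference signal (open) on each array for 1 probe each of Gstm1, Gstm3 and Gsta3, as log2 signal after quantile normalisation within each channel, so that the height of one channel against the other carries no meaning. On control 616 the reference signal of Gsta3 is 14.16, far above the other arrays, and the liver signal of Gstm3 is 11.40, far below.

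Slides 139, 141, 136 and 100 held 1 control and 1 hypothyroid liver each, so the groups could also be compared within a slide. In that order of slides the first Gstm1 probe differed by 1.07, 1.13, 1.94 and 1.75, and the second by 1.00, 0.97, 1.16 and 2.31. Gstm3 differed by 1.01, 1.11, 1.56 and 1.75. These differences were higher in hypothyroid liver on each slide, and slide 100 held control 616. Not all of the 13 probes were higher on each slide. Gstm5 differed by 0.14, 0.12, 0.28 and -0.05, and Gstt1 by -0.04, -0.05, -0.12 and 1.35. Gstt1 was therefore higher only on the slide of control 616, where Gsta3 also differed by 3.54 against 0.28 to 0.52 on the other slides. Gstp1 showed the opposite, with 0.02 on slide 100 and 0.47 to 1.07 elsewhere for its first probe.

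**Figure D4:**
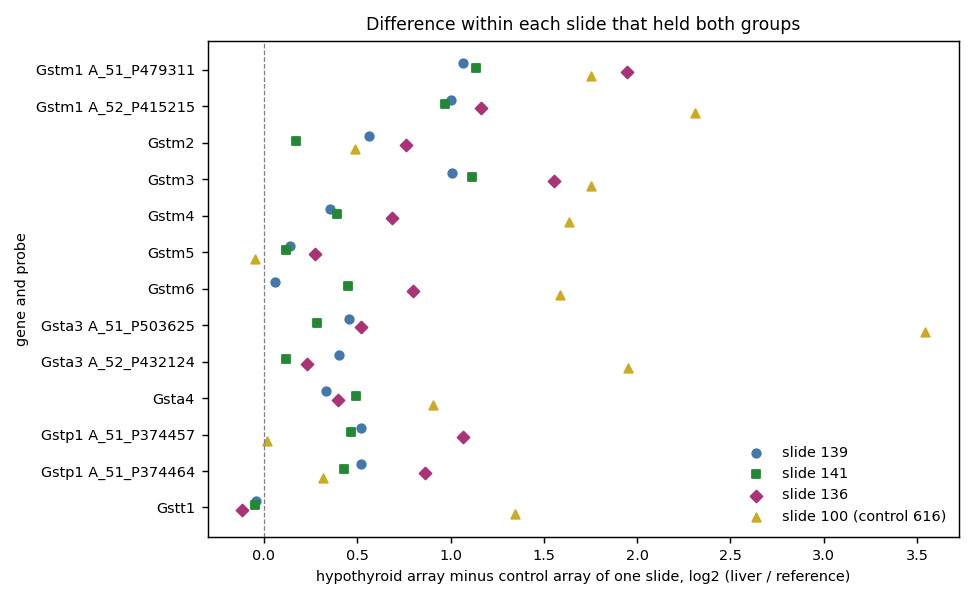
Hypothyroid array minus control array of the same slide, in log2 ratio units (horizontal axis), for each of the 13 probes and each of the 4 slides that held both groups. Every point of Gstm1 and Gstm3 lies at 0.97 or above, and the triangles of slide 100 (control 616) lie apart for Gsta3, with 3.54 on the first probe, and for Gstt1, with 1.35.

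The control livers differed in their content of acinar RNA, and the hypothyroid livers were all at the low end. The controls with little of it were 881 and 391, and whether Gstm1 or Gstm3 varied with this content was not tested. Hepatocyte markers had a median difference of 0.61, with all 10 probe means higher in hypothyroid liver, and of 0.27 without control 616. The median of the 13 transferase probes was 0.58, and 0.53 without control 616. The part of either marker list in the differences was not tested.

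The probes most like the first Gstm1 probe over the 10 arrays, with group means removed, were those of Prrc2b (Pearson r = 0.93), Yipf7 (r = 0.93) and Krt9 (r = 0.93) among probes with a gene name. Gstm3 came at rank 302 of all probes with r = 0.81. The second Gstm1 probe came only at rank 7686 with r = 0.27, so the probes of this gene shared little of the pattern within groups. For Gstm3 the most alike were Vmn1r228, Zer1 and Orai1, with r = 0.95 for each. These values describe 10 arrays that share slides and a reference.

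The 15 other cytosolic transferase genes of the fixed list gave 11 probes of 11 genes tested, since Gsta5, Gsta13 and Gstp2 had no matched probe and Gstt4 stayed below the limit. In limma 0 of the 11 passed an adjusted p of 0.05 over all probes, and at an unadjusted p under 0.05 there were 5 higher and 0 lower, where 3.34% of all probes were higher and 4.08% lower. Their median difference was 0.46, and 0.16 without control 616, when 4 were higher and 0 lower at an unadjusted p under 0.05 in limma and 3.46% of all probes were higher. Gstt2, a theta class form that stands near Gstt1 in mammalian genomes, read 1.90, 1.91, 1.79, 1.15 and 1.89 in the controls and 2.26, 2.55, 2.57, 2.51 and 2.65 in the hypothyroid livers. Its groups did not overlap, and its difference was 0.78 (SE 0.14, limma adjusted p = 0.15). Without control 616 it was 0.63 and passed (limma adjusted p = 0.020), as did 0.104% of all probes then tested, 0.0442% being higher. Gsta2, an alpha class form, differed by 0.70 (SE 0.16, limma adjusted p = 0.29) and Gstt3 by 0.47 (SE 0.12, limma adjusted p = 0.37), both without overlap. The Gsta2 probe was dim, with a log2 liver signal of 7.21 against 10.86 for Gstt2 and 11.64 for Gstt3. It was well above background on 4 of 5 controls, and its SD was 0.09 in controls and 0.39 in hypothyroid livers. Genes described from this list and from all the lists that follow were picked on these values, for a lack of overlap. Every hypothyroid liver was above every control on 3 of these 11 probes, against 1.07% of all probes. In the lists that follow this held for 1 of 7, 2 of 14, 0 of 8, 1 of 20 and 1 of 22 probes in turn.

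The membrane-bound and mitochondrial list gave 7 probes, with 0 past the adjusted threshold in limma. Its median was -0.12, which turned to 0.01 without control 616. At an unadjusted p under 0.05 in limma 1 probe was higher and 0 lower. For this list and those that follow, the shares of all probes at that unadjusted threshold were 3.34% higher and 4.08% lower. Mgst1, the abundant microsomal transferase, was at 4.40 ± 0.96 in the controls and 5.19 ± 0.17 in the hypothyroid livers on probe A_52_P549827. The groups did not overlap, but control 616 stood at 2.69 and the difference of 0.79 had an SE of 0.38 (limma adjusted p = 0.68) and was 0.36 without that array. The other Mgst1 probe differed by 0.28 (SE 0.08, limma adjusted p = 0.45).

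Genes that make and recycle glutathione gave 14 probes with a median of 0.29, or 0.13 without control 616, of which 0 passed in limma and 5 were higher and 1 lower at an unadjusted p under 0.05. Gclc, the catalytic subunit of the rate-limiting enzyme of glutathione synthesis, read 2.77, 2.53, 2.69, 1.78 and 2.60 in the controls and 3.09, 3.43, 3.50, 2.85 and 3.21 in the hypothyroid livers. The groups were apart, and the difference was 0.74 (SE 0.19, limma adjusted p = 0.33). Cth, which makes cysteine from cystathionine, differed by 0.63 (SE 0.16, limma adjusted p = 0.32), also without overlap. The other 3 higher probes were those of Gsr, glutathione reductase, and the lower one was that of Ggct, at -0.57 (SE 0.17, limma adjusted p = 0.45). Gsr and Ggct were named after their values were seen and outside the rule used for the lists.

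The 8 glutathione peroxidase probes had 0 past an adjusted or an unadjusted p of 0.05 in limma and a median of 0.06, or 0.02 without control 616. Conjugate processing and export gave 20 probes, 0 past the adjusted threshold in limma, 2 higher and 1 lower at an unadjusted p under 0.05, and a median of 0.03, or 0.01 without control 616. Abcc3, a pump that moves conjugates from hepatocytes to blood, differed by 0.81 (SE 0.16, limma adjusted p = 0.19) on probe A_51_P449878 without overlap, and by 0.15 on its other probe, where the groups overlapped. The list of regulators gave 22 probes, 0 past the adjusted threshold in limma, 2 higher and 1 lower at an unadjusted p under 0.05, and a median of 0.02. Keap1, which holds Nrf2 in check, read 0.38, 0.44, 0.32, 0.28 and 0.48 in the controls and 0.54, 0.94, 0.98, 0.76 and 0.79 in the hypothyroid livers. Its groups did not overlap, and its difference was 0.42 (SE 0.09, limma adjusted p = 0.22).

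**Figure D5:**
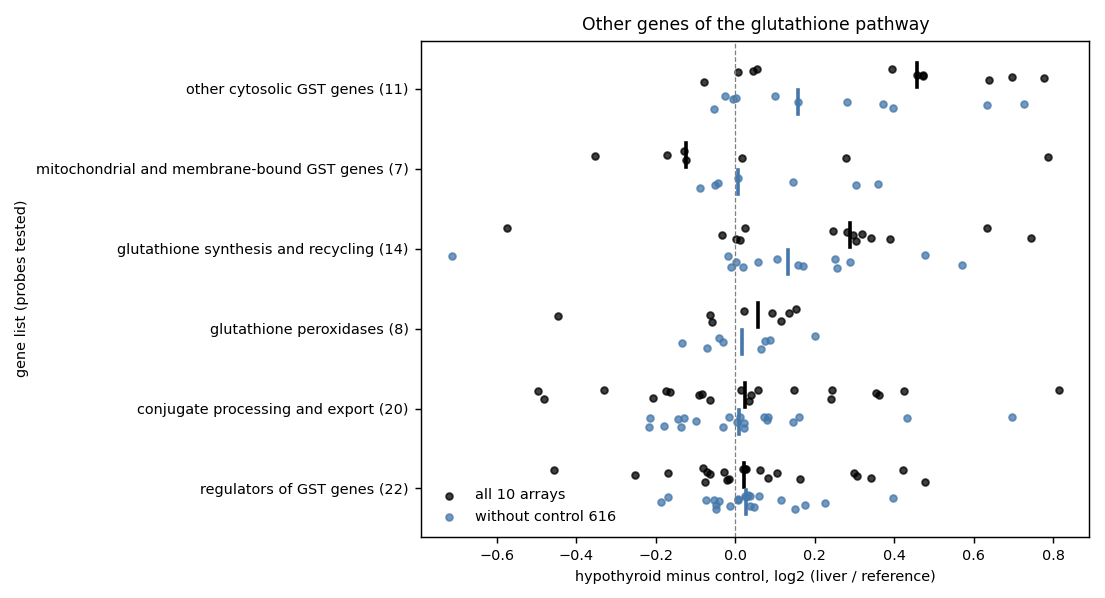
Difference between hypothyroid and control means in log2 ratio units (horizontal axis) for every probe tested in 6 lists of glutathione genes outside the 10, over all 10 arrays (black) and without control 616 (blue), with 1 point per probe and a bar at each median. The median of the other cytosolic transferases is 0.46 over all arrays and 0.16 without control 616, and those of the peroxidases, the export genes and the regulators lie between 0.01 and 0.06.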

How the data were processed

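Genes, probes and lists were chosen with earlier results of these data known. Liver RNA (Cy5 per the labels) and universal mouse reference RNA (Cy3) of 10 pups were hybridised to Agilent 4x44K arrays. The authors deposited scanner output, in which median and background intensity are given per spot and no normalization between arrays had been applied. The number of arrays limits the precision. Accessions were matched to current symbols for 23374 of 41174 probes. Intensities were background-corrected (normexp, offset 50), normalised by loess (span 0.2) and taken as log2 ratios with limma 3.58.1 in R 4.3.3. Control spots and outlier spots were left out and repeated spots averaged. A probe was tested where its liver signal was above the trimmed mean plus 3 trimmed SD (trim 5%) of the negative-control probes on at least 4 of 5 arrays of a group, which left 32056. The limma test replaced the Fs test of the methods, with Benjamini-Hochberg adjustment over all probes tested. On simulated data 88.5% of 200 probes changed by 1 log2 unit over 32056 probes were recovered at n = 5, with 11 false calls. This share holds for the simulated noise alone. The share of real changes of that size recovered on these arrays was not tested. P-values measure the spread between pups of separate litters.

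Every probe matched to a member by its transcript accession is reported, and gene names on the array were not searched. Array values are given for the brightest probe of a gene and both of Gstm1. From the lists, genes past the threshold are named, or else up to 3 per list with the largest difference and no overlap, and the 3 nearest patterns each of Gstm1 and Gstm3. Promoter windows were searched on both strands and aligned with free ends (Biopython 1.88). Alternatives were dyes as labelled, slide 141 left out, other background correction, centring, span and filter, slide as a block, the liver channel alone, gene averages, and each array left out. MiRNA assays of the series measured no transferase and were not used.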

Additional observations from a re-analysis of the deposited data

Results flagged for a closer look

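In groups of 5 arrays, the gap of the farthest array to its neighbour was set against the range of the group (critical value 0.71). Of 42 groups of members and named pathway probes, 10 exceeded it, where chance flags about 1 in 20, and all 10 were control groups. Control 616 was the far array in 9 of them. Its ratio of gap to range was 0.865 for Gsta3 (A_51_P503625, 2.45 with the nearest control at 5.46) and 0.727 for the second Gsta3 probe (1.85 and 3.28). It was 0.814 for Gstt1 (1.51 and 2.79), 0.781 for Gstm4 (0.37 and 1.45), 0.739 for Gstm3 (1.42 and 1.90) and 0.711 for the second Gstm1 probe (0.56 and 1.68). Outside the 10 genes it was 0.954 for Mgst1 (2.69 and 4.78), 0.847 for Gstt2 (1.15 and 1.79) and 0.758 for Gclc (1.78 and 2.53). The remaining group was Gstm2, where control 391 was far at -0.32 with the nearest control at 0.17, a ratio of 0.719. On these 13 probes the first Gstm1 probe, Gsta4, Gstm5, Gstm6 and both Gstp1 probes showed no such gap in either group.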

How the results depend on the processing

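No paired analysis was possible by animal number because control and hypothyroid animals share none, but 4 slides held an array of each group, and slide was used as a block instead. Over 12 alternatives and 10 arrays left out in turn, the first Gstm1 probe ranged from 0.97 (dyes as labelled) to 1.65 (median centring, which moved the median of all probes to 0.09), and Gstm3 from 0.82 (dyes as labelled) to 1.81 (liver channel alone). With 1 array left out they ranged from 1.28 to 1.51 and from 1.14 to 1.36. The median of the other member probes was 0.42 to 0.74 and, with 1 array left out, 0.44 to 0.59. The direction turned for Gstm5 from the liver channel alone (-0.053) and for Gstt1 without control 616 (-0.088, with up to 0.305 over the arrays left out). The number of probes past the threshold, 2 of all tested, was 0 with the dyes as labelled, without slide 141, with slide as a fixed block and with gene averages, 1 with the processed signals, with median centring and from the liver channel alone, and 14 with slide as a random block. With 1 array left out it ranged from 1 to 33: it was 1 without control 832, control 391, hypothyroid 576 or hypothyroid 626, 6 without hypothyroid 723 and 33 without control 616. For the pathway lists the count of 0 became 1 without control 616 (Gstt2) and ranged from 0 to 1 over the arrays left out. For control liver against the reference, 11 member probes passed, 0 with the dyes as labelled, 9 with the processed signals, with median centring and with gene averages, and 10 to 12 with 1 array left out. That comparison was not computed for the liver channel alone or with slide as a fixed block. The causes were not tested. The reference signals of Gstm6 (6.38 to 6.96) and Gstm4 (6.88 to 7.33) were the lowest of the 13, and the Gstm6 difference was 0.93 with the processed signals against 0.77.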
